A study of Homo sapiens with 8 samples.

Results

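The regions described here are 37 open-chromatin peaks, of 129536 measured, that lie within 1 kb of either end of a replication-dependent histone gene on chromosome 6 between 26 and 28 Mb. The genes are the RefSeq protein-coding genes of that window whose symbols start with H1-, H2AC, H2BC, H3C or H4C. There are 53 of them, and 39 had at least 1 such peak. By class the window holds 6 H1, 11 H2A, 14 H2B, 10 H3 and 12 H4 genes. Among the peaks, which themselves come from measured signal, membership rests on position alone. The rule was chosen with earlier results of these data known.

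Omni-ATAC-seq gave the signal: a transposase cuts open DNA in isolated nuclei, and the cut fragments are sequenced. The cells were HEK293, a human embryonic kidney line, and the genotype field gives eGFP-YAP, a green fluorescent tag on the transcriptional coactivator YAP, for all libraries. The control group held 4 vehicle libraries, marked 0 h in the library names. The treated group held 4 libraries made after 1 h with sorbitol at 0.2 M, which raises the osmolarity outside the cells so that they lose water. The series description adds that cells of this line were serum-starved for 1 h beforehand. Whether the line is a single clone, and whether replicates came from separate cultures, is not given in the sources used here, so p-values measure the spread between these libraries, which may be technical. In such bulk samples, fewer cells with an open region and less opening per cell cannot be told apart.

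Replication-dependent histone genes supply the proteins that package newly copied DNA. They are transcribed in S phase, mostly lack introns, and end in a stem-loop that is cut with the help of the U7 small nuclear RNA and bound by SLBP in place of a poly(A) tail. H2A and H2B genes often sit head to head and share the stretch between their starts. H2A, H2B, H3 and H4 form the nucleosome core, whereas H1 binds the linker DNA between nucleosomes. In dividing cells the large chromosome 6 cluster gathers in the histone locus body, where the coactivator NPAT is concentrated.

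RefSeq promoter sequences were matched by symbol for 48 of the 53 genes, all but H4C1, H4C3, H2AC12, H3C11 and H3C12. The lines below give the 250 bases before the start, 5′ to 3′ along each gene, for genes of the peak with the smallest p-value in each class. They are shown because the classes differ in which short elements they hold, and these stand in capitals. These are the CCAAT box, the TATA box (TATAAA), the octamer (ATTTGCAT) bound by the factor OCT1, the H1 element AAACACA, and GGTCCG, a core of the H4 site II element. Both strands were searched, and capitals also mark the reverse complement and stretches where 2 elements overlap.
H1-2, chr6:26056471-26056720, minus strand: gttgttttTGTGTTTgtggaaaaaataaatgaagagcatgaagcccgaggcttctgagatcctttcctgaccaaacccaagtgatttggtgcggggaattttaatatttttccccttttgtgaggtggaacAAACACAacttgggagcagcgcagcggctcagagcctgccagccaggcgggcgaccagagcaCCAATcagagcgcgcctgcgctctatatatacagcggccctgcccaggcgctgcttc
H2AC11, chr6:27132793-27133042, plus strand: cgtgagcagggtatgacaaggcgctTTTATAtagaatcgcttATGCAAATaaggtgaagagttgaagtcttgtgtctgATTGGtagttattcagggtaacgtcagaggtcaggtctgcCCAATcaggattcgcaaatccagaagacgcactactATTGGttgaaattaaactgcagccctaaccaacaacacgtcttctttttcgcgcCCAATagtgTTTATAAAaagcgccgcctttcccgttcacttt
H2BC17, chr6:27893175-27893424, plus strand: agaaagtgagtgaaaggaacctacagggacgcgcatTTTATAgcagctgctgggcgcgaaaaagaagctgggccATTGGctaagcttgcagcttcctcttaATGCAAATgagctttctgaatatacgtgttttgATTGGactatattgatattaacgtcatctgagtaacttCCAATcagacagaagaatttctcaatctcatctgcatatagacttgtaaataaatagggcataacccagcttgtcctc
H2AC15, chr6:27838376-27838625, minus strand: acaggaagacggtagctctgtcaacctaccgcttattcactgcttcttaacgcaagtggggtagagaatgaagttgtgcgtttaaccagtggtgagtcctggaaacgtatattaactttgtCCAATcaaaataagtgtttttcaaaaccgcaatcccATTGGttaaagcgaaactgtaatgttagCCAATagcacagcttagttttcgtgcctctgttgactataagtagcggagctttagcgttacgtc
H3C7, chr6:26250636-26250885, minus strand: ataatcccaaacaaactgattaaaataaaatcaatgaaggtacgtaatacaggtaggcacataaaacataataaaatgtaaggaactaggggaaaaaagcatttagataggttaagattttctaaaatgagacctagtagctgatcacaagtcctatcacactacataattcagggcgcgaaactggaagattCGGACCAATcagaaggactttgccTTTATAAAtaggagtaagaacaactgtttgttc
H4C9, chr6:27139032-27139281, plus strand: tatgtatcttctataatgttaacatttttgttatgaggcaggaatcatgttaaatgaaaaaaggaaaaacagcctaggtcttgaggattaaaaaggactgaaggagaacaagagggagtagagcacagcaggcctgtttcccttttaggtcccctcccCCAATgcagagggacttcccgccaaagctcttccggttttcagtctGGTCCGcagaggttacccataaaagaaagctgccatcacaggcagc

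Positions are of GRCh38.p14. The peaks over the genes hold all 250 of these bases for H2AC11, H2BC17 and H2AC15, 249 for H1-2 and 52 for H3C7, whereas no peak covers those of H4C9. The H2AC15 stretch runs into the neighbouring gene H2BC15, which starts on the other strand, so the pair shares it.

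Over the full 300-base RefSeq windows, 250 before and 50 after the start, CCAAT was found in 41 of the 48 histone promoters (85.4%), against 34.6% of all 35116 promoter windows. It was in all H1, H2A, H2B and H3 windows and in 3 of 10 H4 windows. TATAAA was in 64.6% of the histone windows and 11.5% of all. The octamer was in 8 of 10 H2A and 11 of 14 H2B windows, in 1 of 8 H3 windows and in none of the 6 H1 or 10 H4 windows, against 1.77% of all. AAACACA was in all 6 H1 windows and in no other histone window, against 5.64% of all. GGTCCG was in 9 of 10 H4 windows, against 11.3% of all. A match is a run of letters and not a measured binding site.

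Libraries held 11522266 to 19831471 counts in peaks, and those of the sorbitol group were on the whole shallower. At several histone peaks vehicle 4 and sorbitol 4 were the libraries nearest to the other group, so counts without both are given below. Of 5 genes used as HEK293 markers, 4 had a gene-end peak, with mean levels of 1.78 to 95.4 CPM over 7 peaks. PAX2 had none. Of 6 marker genes of other cell types, only PTPRC and MYOD1 had any, with means of 1.16 to 21.3 CPM, so the ranges overlap. These are means over all 8 libraries, and levels of accessibility and not of RNA.

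Most histone peaks did not pass the test after sorbitol, and most of those that did were lower. In edgeR's quasi-likelihood test, adjusted by Benjamini-Hochberg over every tested peak, 13 of the 37 (35.1%) changed at an adjusted p under 0.05. The share was 29.1% over all 129487 tested peaks and 46.1% over the 16595 tested peaks at the ends of other protein-coding genes. Of these 13, 11 were lower and 2 were higher after sorbitol. Lower peaks thus made up 29.7% of the histone peaks, against 13.1% of all tested peaks and 39.6% of those at other protein-coding gene ends. Higher peaks made up 5.41%, against 16.0% and 6.50%. All 37 passed the filter on low counts.

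The median log2 fold change was -0.12 for the histone peaks, 0.01 for all tested peaks and -0.21 for other protein-coding gene ends. The histone median therefore lay between the other 2, nearer to that of gene ends, and no test of this difference was made. A change of at least 2-fold was found at 1 of the 37 histone peaks, beside H4C9. It was found at 6.15% of all tested peaks and at 326 of the 16595 at other protein-coding gene ends. All 4 sorbitol libraries lay beyond all 4 vehicle libraries at 11 histone peaks (9 lower, 2 higher), or 29.7%, against 26.3% of tested peaks.

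**Figure D1:**
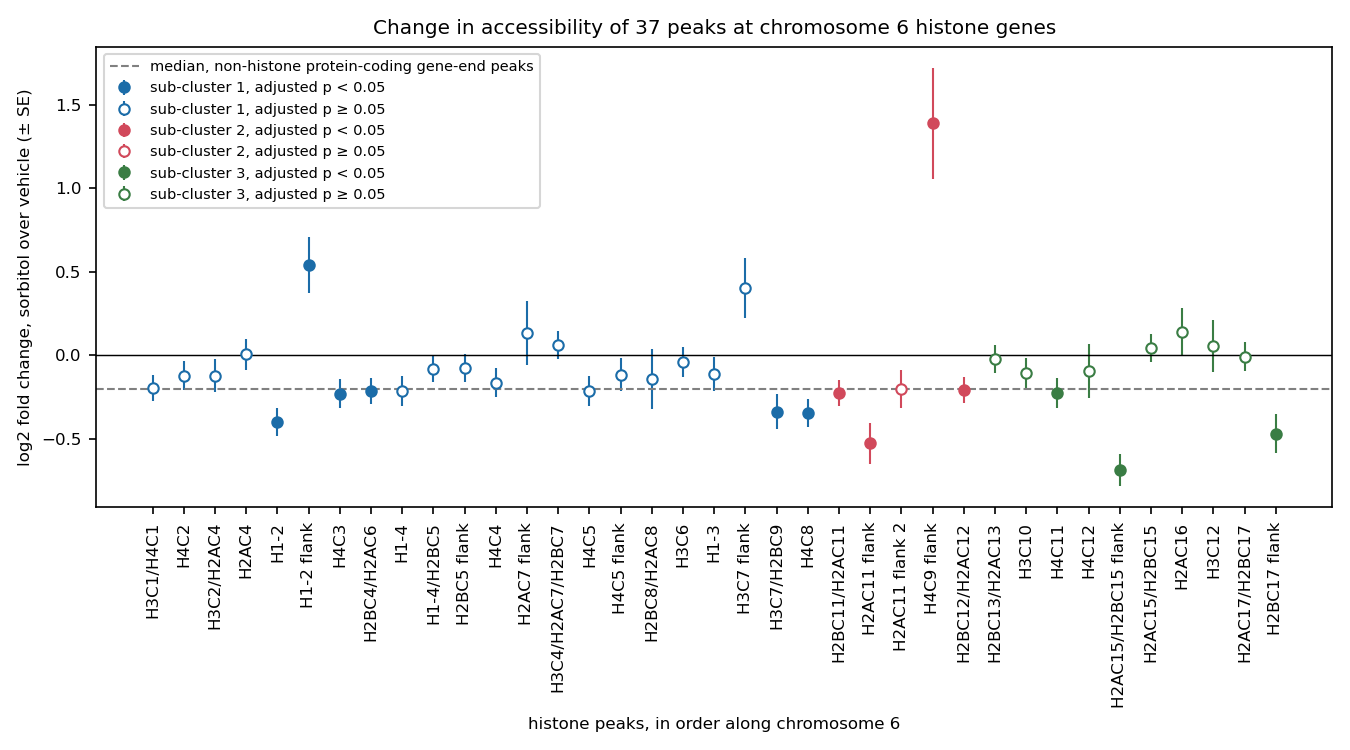
Log2 fold change (sorbitol over vehicle) with its standard error for each of the 37 histone peaks, in order along chromosome 6, coloured by sub-cluster and filled where the edgeR adjusted p is under 0.05. Of the 37 points 28 lie below 0, the dashed line marks the median of other protein-coding gene ends (-0.21), and the peak beside H4C9 stands highest at 1.39.

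Which histone peaks were called, and how many in each direction, depended on the scaling. No peak called here was called in the opposite direction under another scaling. The values above use the trimmed mean of M-values (TMM) over all tested peaks. When the factors were taken from other protein-coding gene ends instead, 8 histone peaks were higher and 3 lower, and their median became 0.09. That scaling moved the median of all peaks from 0.01 to 0.22. Of the calls then made, 72.7% were higher among histone peaks, 83.3% among all tested peaks and 51.3% at other protein-coding gene ends. With TMM over all tested peaks these shares were 15.4%, 54.9% and 14.1%. With a loess offset, which removes trends with peak strength, 5 were higher and 4 lower, and the same shares were 55.6%, 53.7% and 33.1%. Library totals alone gave 3 higher and 6 lower. Factors from peaks outside the main chromosomes, tried after the data were seen, left 1 higher, beside H4C9, and 1 lower, downstream of H2AC15. Over all tested peaks 8819 were then higher and 5078 lower. Of the 13 calls, 5 were made under all 4 other scalings of the deposited counts (DESeq2 size factors, library totals, gene-end factors and loess) and without any single library. These are the peak over H1-2, the flanking peaks of H1-2 and H4C9, and the peaks downstream of H2AC11 and H2AC15.

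Single libraries also matter. Without sorbitol 3 only 7 histone peaks changed, 5 of them lower, and without vehicle 1 or vehicle 2 8 changed, 6 of them lower in each case. Lower peaks then made up 13.5%, 16.2% and 16.2% of the histone peaks, without sorbitol 3, vehicle 1 and vehicle 2 in turn. The backgrounds fell too, to 11.6%, 11.2% and 10.7% of all tested peaks and 35.3%, 35.2% and 34.0% at other protein-coding gene ends. A call held for 7 peaks when any 1 library was left out. The other 6 (H4C3, H2BC4/H2AC6, H3C7/H2BC9, H2BC11/H2AC11, H2BC12/H2AC12 and H4C11) were all lost without sorbitol 3, and 5 of them also without vehicle 1 or vehicle 2. In addition, 4 of these 6 were lost without vehicle 3 or sorbitol 2, and 2 without sorbitol 1. Leaving out both replicates 4 gave 18 changed peaks, 16 lower and 2 higher, with a median of -0.22. These 2 libraries were picked because they lay nearest to the other group at several histone peaks. Their removal therefore favours larger differences there, and the higher count is no check of the calls. In that fit 43.2% of the histone peaks were lower, against 44.05% at other protein-coding gene ends, whose median was -0.25. With the first number of the library names as a term in the model, whose meaning is not given in the sources used here, 14 changed, 12 of them lower.

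Levels below are CPM, counts divided by the library's total and its TMM factor. Peaks are named by the genes within 1 kb, with a stroke between genes that share a peak. A peak that overlaps none of the genes it is named for is called a flanking peak, a division by position made after the values were seen. There were 27 peaks over genes and 10 flanking ones, of which 9 lay downstream of the gene they are named for and 1 upstream. The flanking peaks of H2AC7 and H4C9 also lie inside the annotated spans of longer histone genes, H3C4 and H2BC12. Among genes with a promoter entry, a start lay inside 24 of the 27 peaks and none of the 10, and the peak over H4C3, which has no entry, holds that whole gene. Of the peaks over genes, 8 (29.6%) were lower and none higher. Of the flanking peaks, 3 (30%) were lower and 2 (20%) higher. The shares of lower peaks were thus nearly equal. Higher peaks made up 16.0% of all tested peaks and 6.50% of those at other protein-coding gene ends. Whether peaks over genes and flanking peaks differ was not tested. Counted by any annotated histone span instead, 8 of 29 peaks were lower and 1 higher, and of the 8 outside such spans 3 were lower and 1 higher. Fold changes ran from -0.40 to 0.14 (log2) in the 27 peaks and from -0.69 to 1.39 in the flanks. The counts differ in precision, since flanking peaks had a median mean level of 11.1 CPM and peaks over genes 37.2.

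The H1 linker genes had 4 peaks of their own, at H1-2, H1-3 and H1-4. The peak over H1-2, an H1 subtype made widely in somatic cells, spans chr6:26054981-26056719 and covers the gene. It held 78.5, 67.5, 73.4 and 61.2 CPM in vehicle libraries 1 to 4 and 48.7, 54.1, 49.5 and 60.2 in sorbitol libraries 1 to 4. Every sorbitol library lay below every vehicle library, though vehicle 4 and sorbitol 4 nearly met. The log2 fold change was -0.40 with a standard error of 0.08 (edgeR adjusted p = 0.000228). With gene-end factors it was -0.19 (adjusted p = 0.0327), and with the loess offset -0.20 (adjusted p = 0.0299).

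The promoter of H1-2 printed above ends inside that peak. A small peak further upstream, at chr6:26057087-26057387 and 617 bp from the gene, went the other way. It held 3.95, 3.25, 4.18 and 4.10 CPM in the vehicle libraries and 6.00, 5.36, 5.19 and 5.98 in the sorbitol libraries. The groups did not overlap, and the log2 fold change was 0.54 with a standard error of 0.17 (edgeR adjusted p = 0.0106). Counts there were low, from 54 to 87 per library. All sorbitol libraries also lay below all vehicle libraries at the peak over H1-4 alone, but it (-0.21, adjusted p = 0.0717) and the peak over H1-3 (-0.11, adjusted p = 0.429) did not pass the edgeR test. H1-1, H1-5 and H1-6, the last a testis-specific form, had no peak within 1 kb.

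Per kb of peak, the 3 most accessible histone peaks lay over H2A and H2B pairs, H2BC11/H2AC11, H2AC15/H2BC15 and H2AC17/H2BC17, with means of 55.4, 46.5 and 45.7 CPM per kb. Among peaks near both an H2A and an H2B gene and no other class, 4 of 8 (50%) were lower. The share was 13.1% of all tested peaks and 39.6% at other protein-coding gene ends. The median log2 fold change of the 8 was -0.18. The peak over the head-to-head pair H2BC11/H2AC11, at chr6:27131538-27133433, had the highest mean level of all histone peaks, 105.1 CPM over 1896 bp. It held 114.3, 129.6, 108.1 and 101.5 CPM in the vehicle libraries and 97.2, 100.9, 85.9 and 103.1 in the sorbitol libraries. The groups overlapped through vehicle 4 and sorbitol 4. The fold change was -0.23 with a standard error of 0.08 (edgeR adjusted p = 0.0229), and with gene-end factors it was -0.02 (adjusted p = 0.870). Library totals alone and the loess offset also end the call.

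The pair H2BC12/H2AC12 at chr6:27145682-27147917 had 100.2 ± 6.40 CPM with vehicle and 86.7 ± 7.01 with sorbitol (SD, n = 4), and its log2 fold change was -0.21 (edgeR adjusted p = 0.0335). This call ends with library totals alone and with gene-end factors or the loess offset, where the estimates are 0.00202 and 0.0136. The pair H2BC4/H2AC6 at chr6:26122866-26124608 had 75.9 ± 7.34 and 65.3 ± 3.70 CPM (SD, n = 4). Its groups overlapped, and the log2 fold change was -0.22 (edgeR adjusted p = 0.0342), lost with library totals alone, gene-end factors or the loess offset. H2BC13/H2AC13 had -0.02 and H2AC17/H2BC17 had -0.01 on the log2 scale, with standard errors of 0.08 and 0.09, and neither passed the test. With gene-end factors both were called higher, as was H2AC17/H2BC17 with the loess offset.

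Beside 3 of these pairs a smaller downstream peak fell. The one 278 bp downstream of H2AC15, at chr6:27836827-27837602, had the smallest p-value of all histone peaks. Its vehicle libraries held 26.1, 23.1, 26.2 and 22.6 CPM and its sorbitol libraries 14.9, 14.8, 15.1 and 16.0. The lowest vehicle library thus stood well above the highest sorbitol library. The log2 fold change was -0.69 with a standard error of 0.10 (edgeR adjusted p = 2.35e-07), and it passed the test under every alternative run.

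The peak over H2AC15/H2BC15 itself, 384 bp away at chr6:27837987-27839203, did not follow. It held 60.6, 60.8, 52.4 and 49.3 CPM with vehicle and 57.7, 57.2, 52.3 and 62.3 with sorbitol, and the groups overlapped. Its fold change was 0.04 with a standard error of 0.08 (edgeR adjusted p = 0.753). With gene-end factors or the loess offset it was called higher.

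The other lower flanking peaks lie downstream of H2BC17 and H2AC11. At H2BC17 the flanking peak, chr6:27894190-27894664, lies 299 bp past the gene. It held 17.2, 15.1, 15.9 and 12.1 CPM with vehicle and 9.91, 12.0, 10.1 and 11.4 with sorbitol, so the groups came close but did not overlap. Its fold change was -0.47 with a standard error of 0.12 (edgeR adjusted p = 0.00158), and with gene-end factors the adjusted p was 0.0619.

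At H2AC11 the flanking peak nearest the gene, chr6:27133824-27134114, held 11.8, 11.6, 11.8 and 11.01 CPM with vehicle and 7.50, 8.09, 7.03 and 9.35 with sorbitol. The groups were clearly apart. The log2 fold change was -0.53 with a standard error of 0.12 (edgeR adjusted p = 0.000945). A further peak, 936 bp downstream, had -0.20 (adjusted p = 0.184).

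**Figure D2:**
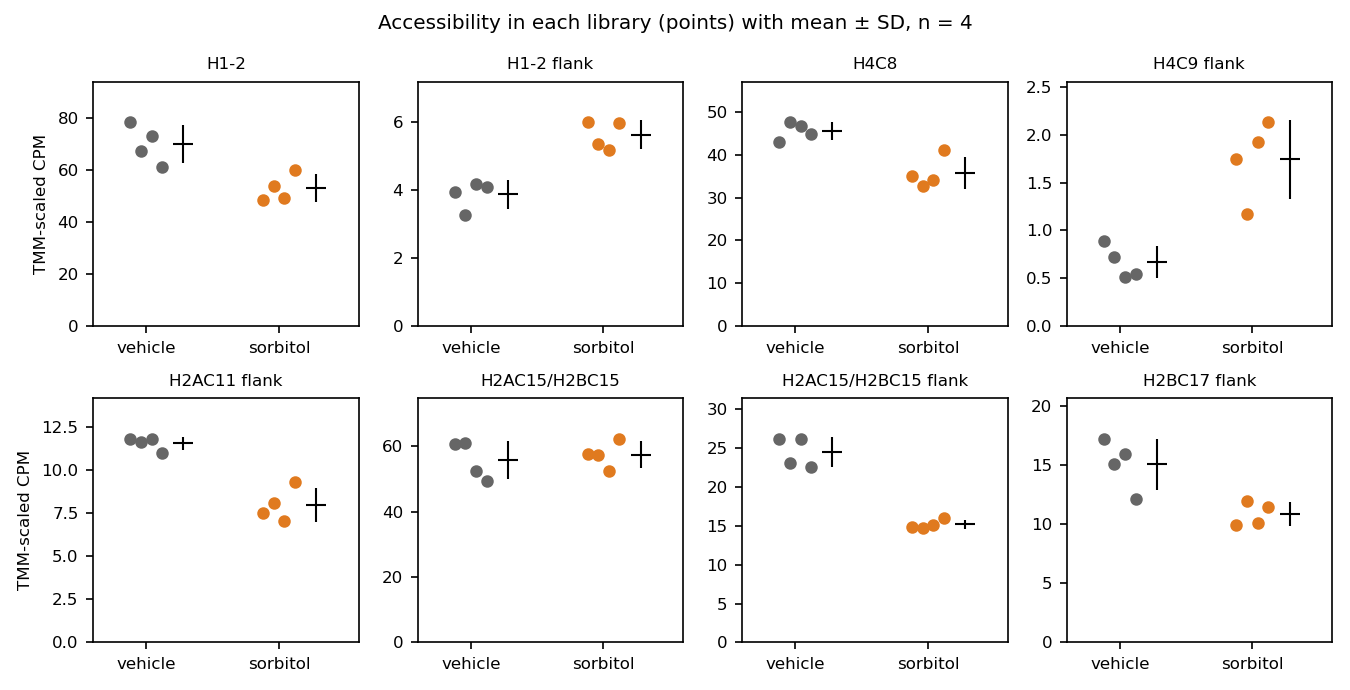
TMM-scaled CPM in each library at 8 histone peaks, with the mean and SD of the 4 libraries of each group. Vehicle and sorbitol points are apart at every peak shown except that over H2AC15/H2BC15, where they span 49.3 to 62.3 CPM together.

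Among the remaining H2A peaks, H2AC16 had 0.14 and the peak over H2AC4 alone 0.01 on the log2 scale. Neither passed the test, and H2AC4 was called higher with gene-end factors. Of the H2B genes, H2BC3, H2BC6, H2BC10 and H2BC14 had no peak, and of the H2A genes only H2AC14 had none. The peak past the far annotated end of H2BC5 at chr6:26171628-26173571 also lies within 1 kb of the long non-coding RNA gene H2BC6-AS1, and its fold change was -0.08 (adjusted p = 0.536).

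None of the 4 peaks at H3 genes alone passed the test, and their median log2 fold change was 0.01. H3C6, H3C10 and H3C12 ranged from -0.11 to 0.06. The smallest p-value belonged to a weak peak 751 bp downstream of H3C7, at chr6:26248964-26249391. It held 3.20, 4.16, 3.25 and 3.28 CPM with vehicle and 5.42, 3.81, 4.44 and 4.74 with sorbitol. Only vehicle 2 and sorbitol 2 crossed, and the log2 fold change was 0.40 with a standard error of 0.18 (edgeR adjusted p = 0.0884). With library totals alone, gene-end factors or a minimum mean of 50 counts it passed the threshold.

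The peak over H3C7, which also lies within 1 kb of H2BC9, fell from 18.7 ± 0.998 to 14.8 ± 2.12 CPM (SD, n = 4). Its log2 fold change was -0.34 (edgeR adjusted p = 0.0117). Without sorbitol 3, with gene-end factors or with the loess offset this call was lost. Elsewhere, the broad peak shared by H3C1 and H4C1 at chr6:26020265-26022321 had -0.20 with an adjusted p of 0.0527. The peak shared by H3C4, H2AC7 and H2BC7 had 0.06 (adjusted p = 0.654), and was called higher with gene-end factors or the loess offset. H3C3, H3C8 and H3C11 had no peak.

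H4 genes, which encode the most conserved of the core histones, had 9 peaks of their own, of which 3 (33.3%) were lower and 1 (11.1%) higher. These shares were 13.1% and 16.0% of all tested peaks, and 39.6% and 6.50% at other protein-coding gene ends. The median change of the H4 peaks was -0.16 (log2). The largest fall was at H4C8, where the peak spans chr6:26285026-26286711. It held 43.1, 47.7, 46.7 and 44.9 CPM with vehicle and 35.0, 32.8, 34.1 and 41.2 with sorbitol. The groups did not overlap, and sorbitol 4 was the nearest to the vehicle level. The log2 fold change was -0.35 with a standard error of 0.08 (edgeR adjusted p = 0.0013), and with gene-end factors or the loess offset the adjusted p was 0.137 or 0.0757. A transfer RNA gene, TRX-CAT1-2, and a non-coding RNA gene also lie within 1 kb of this peak.

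With all libraries and TMM over all peaks, smaller falls passed the test at H4C3 (-0.23, adjusted p = 0.038) and H4C11 (-0.23, adjusted p = 0.0477). Both calls end with library totals alone, gene-end factors or the loess offset. H4C2, H4C4, H4C5 and H4C12 had fold changes of -0.21 to -0.10 that did not pass, although the groups of libraries did not overlap at H4C5. H4C6, H4C7 and H4C13 had no peak.

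The only histone peak that changed at least 2-fold lies 100 bp downstream of H4C9, at chr6:27139778-27139985, and inside the longer annotated span of H2BC12, which is also a member gene. It is also the weakest, with 8 to 31 counts per library. It held 0.884, 0.723, 0.516 and 0.547 CPM with vehicle and 1.75, 1.17, 1.93 and 2.13 with sorbitol, and the groups did not overlap. The log2 fold change was 1.39 with a standard error of 0.33 (edgeR adjusted p = 0.0011). It does not cover the H4C9 promoter printed above, and it falls below a minimum mean of 50 counts, so no value is had under that filter.

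Flanking peaks were next compared with the peak over the same gene inside each library, a ratio in which the library scaling cancels. This comparison was added after the values were seen and covers all 9 flanking peaks whose gene has a peak of its own. Beside H2AC15/H2BC15 the flanking peak held 44.3% ± 5.02 of the counts of the gene peak with vehicle and 26.6% ± 1.51 with sorbitol (SD, n = 4). At H2BC17 the share was 27.6% ± 2.25 and 20.3% ± 2.41. It went the other way at H1-2, from 5.61% ± 0.856 to 10.7% ± 1.15, and at H3C7, from 18.7% ± 2.19 to 31.8% ± 6.09. In these 4 the libraries of the groups did not overlap (exact two-sided permutation p = 0.0286 each, the smallest that 4 against 4 libraries allow). Adjusted over the 9 ratios the p-value was 0.0643, so none passed 0.05. With 0.0286 as the smallest possible value, the adjusted value could pass only if more of the 9 ratios separated fully. The adjustment therefore cannot decide on any single ratio.

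The first H2AC11 flanking peak went from 10.3% ± 0.908 to 8.28% ± 0.578 of its gene peak (exact permutation p = 0.0571, n = 4 per group). The ratios at H2BC5, H2AC7, H4C5 and the second H2AC11 flanking peak moved by 0.01 to 0.10 on the log2 scale, with exact permutation p-values of 0.171 to 1.

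**Figure D3:**
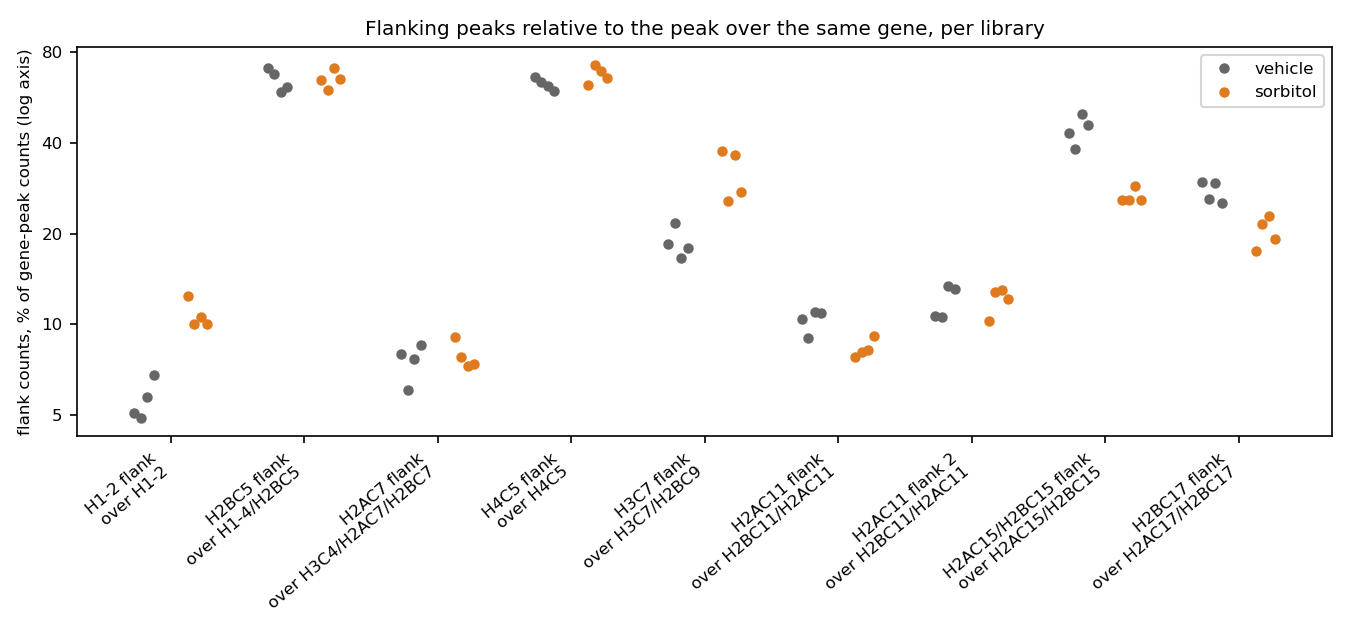
Counts of each flanking peak as a percentage of the counts of the peak over the same gene, 1 point per library, on a log axis. Sorbitol points lie below vehicle points at H2AC15/H2BC15 and H2BC17, above them at H1-2 and H3C7, and among them at H2BC5, H2AC7, H4C5 and the second H2AC11 flank.

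The genes fall into 3 sub-clusters, separated by gaps of over 300 kb. The first runs from 26017032 to 26285534 with 32 genes and 22 peaks, of which 5 were lower and 1 higher. Its median log2 fold change was -0.12. The second, from 27132316 to 27147562, has only 5 genes, all with a peak, and 5 peaks, of which 3 were lower and 1 higher, with a median of -0.21. The third, from 27807479 to 27893891, has 16 genes and 10 peaks, of which 3 were lower and none higher, with a median of -0.06. The shares of lower peaks were 22.7%, 60.0% and 30.0%, the second from only 5 peaks, against 13.1% of all tested peaks and 39.6% at other protein-coding gene ends. Whether sub-clusters differ was not tested.

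Summed over all 37 peaks, histone genes took 1279, 1314, 1243 and 1161 CPM of all peak counts, here without TMM factors, in vehicle libraries 1 to 4 and 1204, 1178, 1098 and 1261 in sorbitol libraries 1 to 4. The groups overlapped, with means of 1249 ± 65.4 and 1185 ± 67.6 (SD, n = 4). Relative to counts at other protein-coding gene ends, the sum was 30.0 ± 1.14 per 10000 counts with vehicle and 31.1 ± 1.38 with sorbitol. The sum was thus lower by the one measure and higher by the other, and in both cases the libraries of the groups overlapped.

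Other lists are given side by side, beside the same backgrounds of 13.1% lower over all tested peaks and 39.6% at other protein-coding gene ends. No difference between lists was tested, and their counts, too, depend on the scaling. With gene-end factors the backgrounds were 5.77% lower over all tested peaks and 19.9% at other protein-coding gene ends. The list of H2AC, H2BC, H3C and H4C genes elsewhere, mostly on chromosome 1, had 13 peaks at 14 of 17 genes. Of these peaks 9 (69.2%) were lower and none higher, and their median change was -0.35 (log2). With gene-end factors 5 (38.5%) were lower and none higher, with a median of -0.14. Their median level was 53.7 CPM, against 28.02 for the 37 peaks. The largest fall was at H2BC21/H2AC20/H2AC21 on chromosome 1, where 1 of 2 peaks went from 41.9 ± 3.99 to 24.7 ± 2.92 CPM (SD, n = 4). Its log2 fold change was -0.76 (edgeR adjusted p = 4.93e-09).

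Replication-independent histone genes, which supply histones outside S phase, had 16 peaks at 11 of 11 genes. Of these 9 (56.3%) were lower and none higher, with a median of -0.31. With gene-end factors 3 (18.75%) were lower and 1 higher, with a median of -0.10. CENPA, the H3 form of centromeres, had -0.55 (edgeR adjusted p = 1.03e-06), and H3-3B, an H3.3 gene, had -0.43 (adjusted p = 0.000259).

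A list of genes that act on histone expression, its cell cycle timing or, as chaperones such as NASP, ASF1B and CHAF1A, on the histones themselves had 35 peaks at 27 of 27 genes. Of these 22 (62.9%) were lower and 1 higher, with a median of -0.34. With gene-end factors 13 (37.1%) were lower and 4 higher, with a median of -0.14. The peak at RNU7-1, the U7 small nuclear RNA gene, fell from 111.5 ± 5.84 to 52.3 ± 3.50 CPM (SD, n = 4). That is a log2 fold change of -1.09 (edgeR adjusted p = 3.41e-16). That peak also overlaps the protein-coding gene C12orf57. At SLBP, the stem-loop binding protein, both peaks were lower, by -0.42 and -0.44. NPAT had -0.19 (adjusted p = 0.0623) and CASP8AP2, a partner in the histone locus body, -0.10 (adjusted p = 0.39). HINFP, a factor of H4 promoters, had -0.47 (adjusted p = 1.4e-05), whereas POU2F1, which encodes OCT1, had 0.06 (adjusted p = 0.627).

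Within the same 2 Mb window, 15 peaks lie at the ends of other protein-coding genes, such as the butyrophilin genes. Of these 1 was lower and 1 higher, and their median was -0.01. The other 167 peaks of the window had 70 lower and 20 higher peaks and a median of -0.19. Of all peaks of the window that are not histone peaks, 93 lie within 1 kb of a transfer RNA gene. Of these 61 were lower and 1 higher, and some may be among the 15 gene-end peaks.

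**Figure D4:**
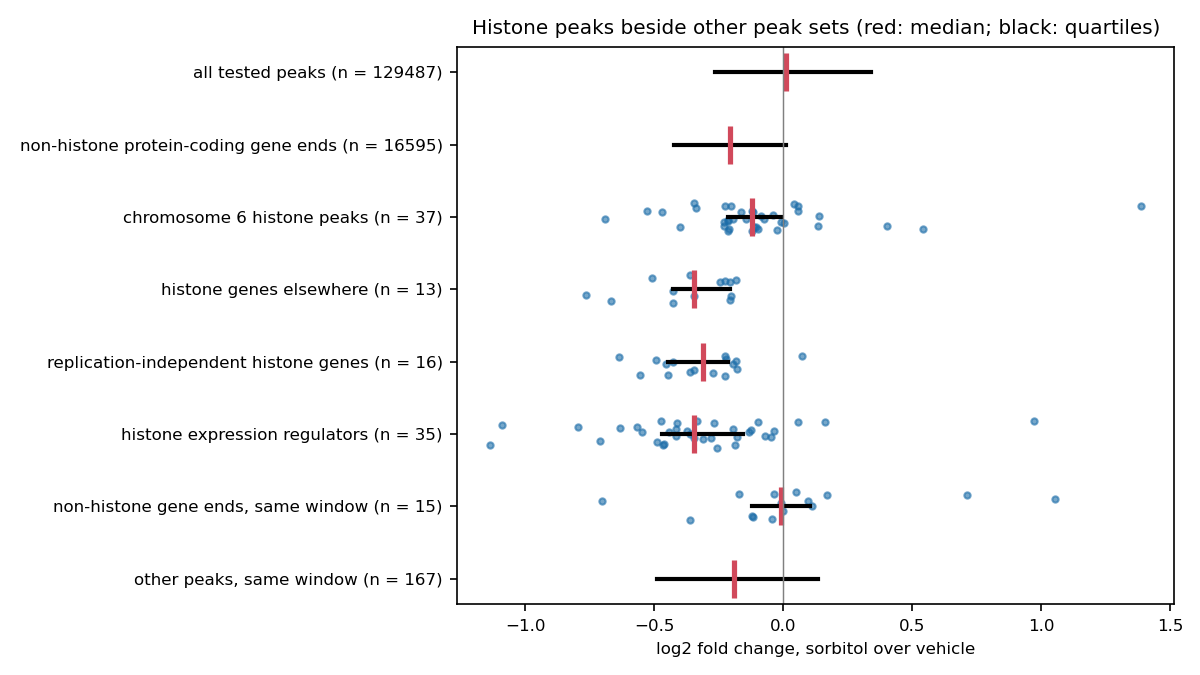
Log2 fold change (sorbitol over vehicle) of histone peaks beside other peak sets, with the median in red, the quartiles in black and single peaks as points for 5 of the smaller sets. The chromosome 6 histone median (-0.12) lies between that of all tested peaks (0.01) and those of histone genes elsewhere (-0.35) and of the list drawn as histone expression regulators, chaperones included (-0.34).

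The distance limit of 1 kb decides membership at its margin. The member farthest from a gene end lies 936 bp from H2AC11 and had a log2 fold change of -0.20. The nearest peaks left out lie 1134 bp from H2AC6, 1530 bp from H2BC17 and 1547 bp from H4C2, and had 0.02, -0.45 and 0.29. Histone coding sequences have near-identical copies, and how the authors treated reads that map to several places is not given in the sources used here. Assignment of counts to a single gene is therefore uncertain inside the coding parts, and a gene without a peak need not be closed.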

How the data were processed

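The 8 ATAC-seq libraries, 4 with vehicle and 4 with sorbitol, come from 50000 cells each, read as 75 bp pairs. The authors deposited raw counts per shared peak, whole numbers with no normalization, in 1 table. Per the submitters' processing notes, Trim Galore 0.6.10, BWA 0.7.17, SAMtools 1.22 and MACS2 2.2.9.1 were among the tools and hg38 was the build. Whether reads or fragments were counted is not given in the sources used here. The file counts starts from 0, so 1 was added. Columns were matched to replicates by the number in their names.

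Genes came from the RefSeq table of GRCh38.p14. Counts were tested with edgeR 4.0.16 in R 4.3.3: filterByExpr (minimum count 10, minimum total 15), which removed 49 peaks and left 129487, TMM factors, and the quasi-likelihood test with treatment as the only term. Benjamini-Hochberg adjustment ran over all tested peaks. Standard errors were derived from the F statistic. DESeq2 1.42.0 was an alternative. Pairing of replicate numbers was checked by the correlation of deviations from group means.

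Named peaks were those with the smallest p-value in each class and sub-cluster, every call of at least 2-fold, the 5 largest called changes in each direction, and the 5 highest mean levels. Other peaks named were chosen after their values were seen. A gap of over 300 kb separated sub-clusters. Members and lists were chosen with earlier results of these data known.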

Additional observations from a re-analysis of the deposited data

Results flagged for a closer look

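Among 74 groups of 4 libraries examined, 2 per histone peak, 2 held a library far from the other 3, where chance alone gives about 3.7. At the peak over H1-4 alone, sorbitol 1 held 20.08 CPM against 23.5 to 23.6 in the other sorbitol libraries. At the peak downstream of H3C7, vehicle 2 held 4.157 CPM while the other vehicle libraries held 3.20 to 3.28. Neither peak passed the edgeR test, with adjusted p-values of 0.0717 and 0.0884.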

How the results depend on the processing

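Over 23 alternatives the 13 changed histone peaks (2 higher, 11 lower, 1 at least 2-fold) became 6 (1 higher, 5 lower) at a threshold of 0.01 and 8 (6 lower, 0 at least 2-fold) with a minimum mean of 50 counts. They became 2 (1 higher, 1 lower) when TMM factors came from peaks outside the main chromosomes, which was added with the data in view. There were 6 lower with library totals alone, 8 higher and 3 lower with gene-end factors, and 5 higher and 4 lower with the loess offset. Peaks within 500 bp, or over a gene or within 250 bp, gave 1 higher each. The stricter threshold and the narrower distances account for their own counts, and the cause of the others was not tested. The backgrounds moved too. At 0.01 lower peaks made up 13.5% of histone peaks, 8.52% of all tested peaks and 30.5% at other protein-coding gene ends. With the minimum of 50 counts these shares were 16.7%, 19.0% and 37.1%. With factors from peaks outside the main chromosomes they were 2.70%, 3.92% and 9.44%. Single libraries left out in turn gave 7 to 17 changed and 5 to 15 lower peaks. Among all tested peaks 10.7% to 13.5% were then lower, and 34.0% to 41.7% at other protein-coding gene ends. Libraries with the same replicate number shared no positive deviation of note from their group means (correlations of -8.04e-05, 0.00671, -0.0308 and -0.133). Whether the numbers mark a pairing is not given in the sources used here, and these correlations cannot settle it. With the replicate block 9 peaks changed, 7 of them lower.

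The median of all histone peaks, -0.1226, became 0.0896 with gene-end factors, 0.0136 with the loess offset and -0.2236 without both replicates 4. With gene-end factors the medians were 0.0458 (H1), 0.2154 (H2A), -0.0632 (H2B), 0.2179 (H3), 0.0464 (H4), 0.0633 (several classes) and 0.0871, 0.002 and 0.15 (sub-clusters 1 to 3). With the loess offset they were -0.0267 (H1), 0.0908 (H2A), -0.1336 (H2B), -0.0542 (H4), 0.0167 (several classes) and 0.0145, -0.0006 and 0.0613 (sub-clusters). Without both replicates 4 they were -0.1136 (H2A), -0.2718 (several classes) and -0.225 (sub-cluster 1). The H2A median was 0.0879 with library totals, 0.0852 with the count minimum, 0.1351 within 250 bp and -0.099 near no other gene, and that of H2B near no other gene was -0.4717. H2BC12/H2AC12 reversed to 0.002 with gene-end factors and 0.0136 with the loess offset. The cause was not tested. Depth limits the weakest peak, beside H4C9, to at most 31 counts a library.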
